A study of Rattus norvegicus with 18 samples.

Results

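The choroid plexus is the vascular, epithelium-covered tissue that hangs into the brain ventricles and secretes cerebrospinal fluid, and it is not part of the cortex. Its epithelium makes very large amounts of transthyretin (Ttr, a carrier of thyroid hormone and of the retinol-binding protein), and it also makes klotho (Kl, a co-receptor for fibroblast growth factors), folate receptor alpha (Folr1, which moves folate into the cerebrospinal fluid) and the chloride intracellular channel protein Clic6. The ventricle wall next to it is lined by ependymal cells, which carry motile cilia. RNA was sequenced from the prefrontal cortex (PFC) of 18 Sprague Dawley rat pups at postnatal day 14, with 6 pups per group. Saline was given to the dams of the SAL pups. The dams of the PNO pups were given oxycodone (oxy) by oral gavage at 15 mg/kg/day from birth to weaning, so the pups were exposed after birth. The dams of the IUO pups were raised from 10 to 15 mg/kg/day before mating and dosed through gestation until weaning, so the pups were exposed in utero and after birth.

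The 18 samples were divided by how much Ttr, Kl, Folr1 and Clic6 RNA they held. Each sample was given a score, the mean of log2(TPM + 1) over the 4 genes, where TPM is a transcript level scaled to gene length and library total. The classes were chosen by these measured levels: within each group the 3 samples with the highest scores formed the high class and the 3 with the lowest formed the low class, which gave 9 high and 9 low samples out of 18. The 4 score genes are therefore described with no test. For every other gene, a difference between the classes says that the gene went with the score across these libraries. A bulk sample cannot tell fewer cells of a type from less RNA per cell.

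Totals of expected counts per sample lay between 18381800 and 25649900 in the high class and between 18547400 and 26084800 in the low class, and mitochondrial transcripts took 8.04% to 16.3% of the counts in the high class and 6.96% to 13.7% in the low class. Transcripts of Y-linked genes were present in 6 of 9 pups in each class. No pair of samples of one group held identical values. In PNO the 3 high samples carried the replicate numbers 1, 2 and 3 and the 3 low samples the numbers 4, 5 and 6, so that in this group the score class and the order of the numbers cannot be told apart. The labels do not say whether pups of one group came from different litters, and p-values measure the spread between these samples.

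Ttr spanned the widest range of the 4 score genes. In the high class it lay between 69.4 and 2656 TPM with a median of 527 TPM, and in the low class between 0.33 TPM in IUO 5 and 28.0 TPM in IUO 3. Every high sample was above every low sample. The PFC library with the most Ttr was PNO 1. Clic6 was at 0.53 to 7.87 TPM in the high class and at 0.04 to 0.52 TPM in the low class, again with no overlap. Folr1 was at 1.21 to 16.7 TPM against 0.24 to 2.09 TPM, and Kl at 0.08 to 2.84 TPM against 0.02 to 0.23 TPM. For these genes the classes overlapped, with PNO 2 inside the low range for Folr1 and PNO 2, IUO 2 and SAL 4 inside it for Kl. The score itself ran from 2.30 to 5.15 in the high class and from 0.22 to 1.72 in the low class. The samples on either side of the division were SAL 4 at 2.30 and SAL 2 at 1.52, PNO 2 at 2.54 and PNO 6 at 1.72, and IUO 2 at 2.38 and IUO 3 at 1.46. Within the treatment groups the score ran from 0.87 to 4.33 in SAL, from 0.89 to 5.15 in PNO and from 0.22 to 3.56 in IUO.

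**Figure D1:**
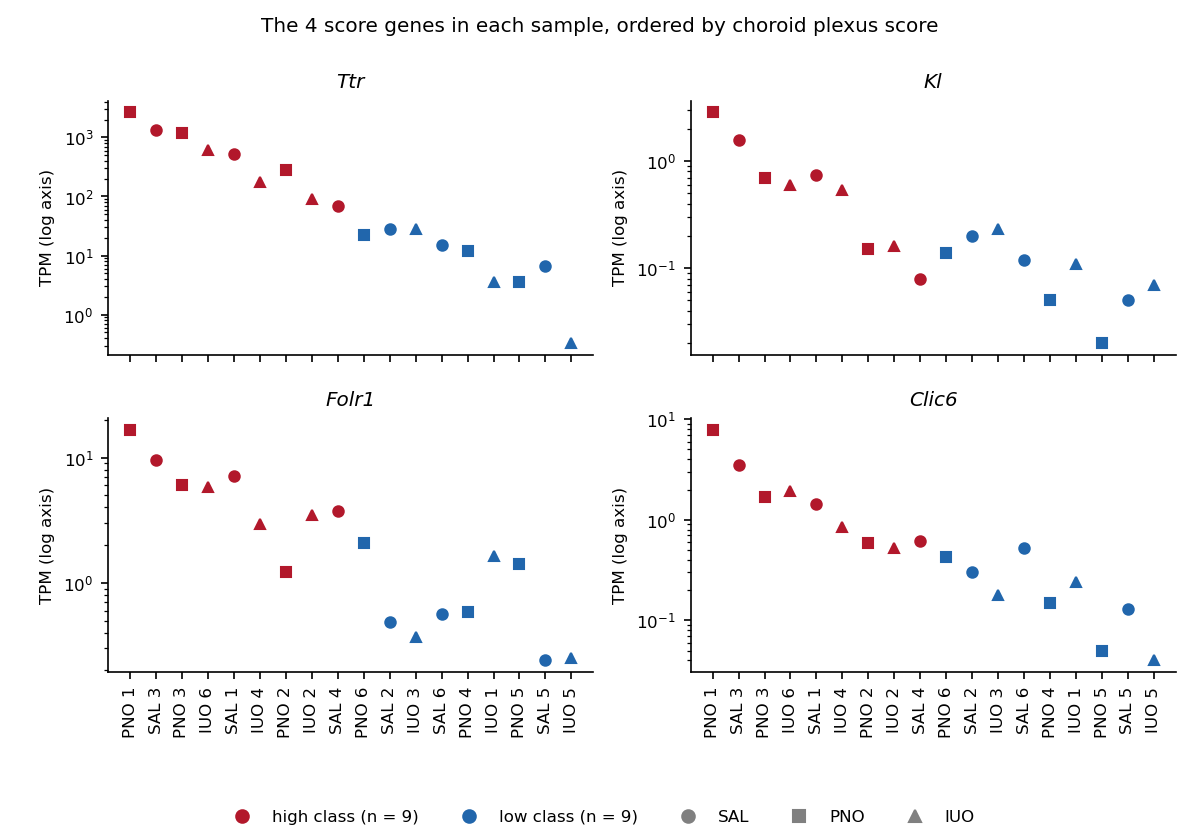
TPM of Ttr, Kl, Folr1 and Clic6 (vertical log axes) in each of the 18 samples, ordered along the horizontal axis by score; red marks the high class, blue the low class, and the shape marks the group. Ttr falls from 2656 TPM in PNO 1 to 0.33 TPM in IUO 5, and each group has samples along the whole order.

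The promoters of 2 genes that are described below are shown first. The first gene, Mfrp, differed most between the classes, and the second, Tekt1, is a tektin of motile cilia. Each sequence is the 150 bases before the start of the gene in the RefSeq annotation of GRCr8, read in the direction of the gene. The Mfrp stretch is chr8:53342384-53342533 on the plus strand, and the Tekt1 stretch is chr10:57479122-57479271 on the minus strand. Capitals mark a 6-base motif, which is TAATCC for the OTX family of homeodomain factors (read on the other strand as GGATTA in Mfrp, 99 bases before the start) and GTTGCC for the RFX family (39 bases before the start of Tekt1). OTX2 is a factor of choroid plexus epithelium and RFX factors serve genes of cilia.
Mfrp: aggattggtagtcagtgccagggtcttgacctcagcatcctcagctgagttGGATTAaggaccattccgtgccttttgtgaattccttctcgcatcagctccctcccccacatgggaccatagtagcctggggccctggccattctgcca
Tekt1: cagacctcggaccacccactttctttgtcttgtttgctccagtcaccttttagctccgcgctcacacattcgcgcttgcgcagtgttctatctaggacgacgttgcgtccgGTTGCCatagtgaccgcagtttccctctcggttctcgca

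Over windows from 250 bases before to 50 after the start, TAATCC was found on either strand in 7.17% of 33469 RefSeq promoters and GTTGCC in 12.2%, and neither motif contains the other. Of the 26 listed genes of motile cilia, 19 had a promoter entry, and 8 of these held GTTGCC (Cfap44, Dnah11, Drc1, Hydin, Mlf1, Sntn, Spef2 and Tekt1). TAATCC was found in 2 of 14 promoters of choroid transport genes (Abca4 and Car14), in 2 of 15 of the secreted proteins and receptors (Ace and Mfrp), in 1 of 19 of the cilia genes (Drc1), and in 0 of 6 and 0 of 3 of the choroid junction and transcription factor genes. GTTGCC was found in 2 of 14, 2 of 15, 0 of 6 and 1 of 3 of the choroid lists in the same order. A match shows that these letters are in the window, and no binding was measured.

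Outside the score genes, Mfrp and Slco1a2 were called higher in the high class. No low sample held more than 7 counts of Mfrp or 3 of Slco1a2, so both passed the filter on low counts through the high class, where such a gene had to differ. Mfrp encodes the membrane frizzled-related protein, and Slco1a2 encodes an organic anion transporter. These 2 genes were the only calls among 15699 genes tested, 0.0127%, by edgeR's quasi-likelihood test with group as a factor (adjusted p-value under 0.05 and at least 1.5-fold), and 0 genes were called lower. Without adjustment, 1099 genes (7.00%) had a p-value under 0.05 with the higher level in the high class and 914 (5.82%) with the lower. DESeq2 called 27 genes (0.172%), 21 higher and 6 lower. With the score as a number in place of the classes, edgeR called 19 genes (0.121%), 16 higher and 3 lower, and 11 genes were shared by these last 2 lists.

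Levels below are given as CPM, the counts of a gene scaled to library size with TMM normalization. Mfrp was at 17.0 CPM in PNO 1, 11.0 in SAL 3, 7.65 in PNO 3, 4.82 in IUO 6, 2.48 in SAL 1, 2.27 in PNO 2, 1.5 in IUO 4, 0.36 in SAL 4 and 0.20 in IUO 2. The 9 low samples lay between 0.04 and 0.38 CPM, which is 1 to 7 counts. Thus 7 of the 9 high samples were above every low sample, and SAL 4 and IUO 2 were within the low range. The log2 difference was 4.66 (SE 0.73, adjusted p = 0.0272). C1qtnf5, whose transcripts overlap those of Mfrp, was at 12.7 to 23.3 CPM in the high class and 11.2 to 16.8 CPM in the low class, and its log2 difference was 0.23 (SE 0.11, adjusted p = 0.380). How reads of these overlapping genes were divided was set by the authors' counting, so that the level of Mfrp is uncertain to that extent.

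Slco1a2 was at 2.33 CPM in PNO 1 and 1.38 in SAL 3, at 0.89 in PNO 3, 0.88 in IUO 6, 0.66 in SAL 1, 0.58 in PNO 2 and 0.29 in IUO 4, and at 0.15 in IUO 2 and 0.09 in SAL 4. The low samples lay between 0.04 and 0.15 CPM, which is 1 to 3 counts. By CPM 8 of the 9 high samples were above every low sample, but IUO 2 held 3 counts, as did the low sample PNO 4, so only 7 were clear of the low class in counts. SAL 4 was within the low range. The log2 difference was 3.39 (SE 0.52, adjusted p = 0.0272). Slco1a2 has close relatives in the rat genome that can share reads with it, and its counts are few, so that this value is less certain than its SE. A filter at a mean count of 10 removed it from the test. Other transporters of the family went differently. Slco1a4, of the same subfamily, was more abundant and its classes overlapped, at 12.8 to 24.5 CPM against 12.1 to 20.2 CPM. Slco1c1, a carrier of thyroid hormone, was at 94.7 to 146 CPM against 73.9 to 134 CPM. Slco2a1, a prostaglandin transporter, had a negative difference that is given further on.

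Both calls were lost in 12 of the 18 fits that left out 1 sample (any SAL sample except SAL 4, PNO 1, 3, 4 or 5, or IUO 3, 5 or 6). They were also lost with the mean level of striatal, myelin or meningeal genes as a covariate, and with the replicate number as a block. Over all settings in which they were fitted, 30 for Mfrp and 29 for Slco1a2, the log2 difference stayed at 4.03 or more and at 2.84 or more.

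**Figure D2:**
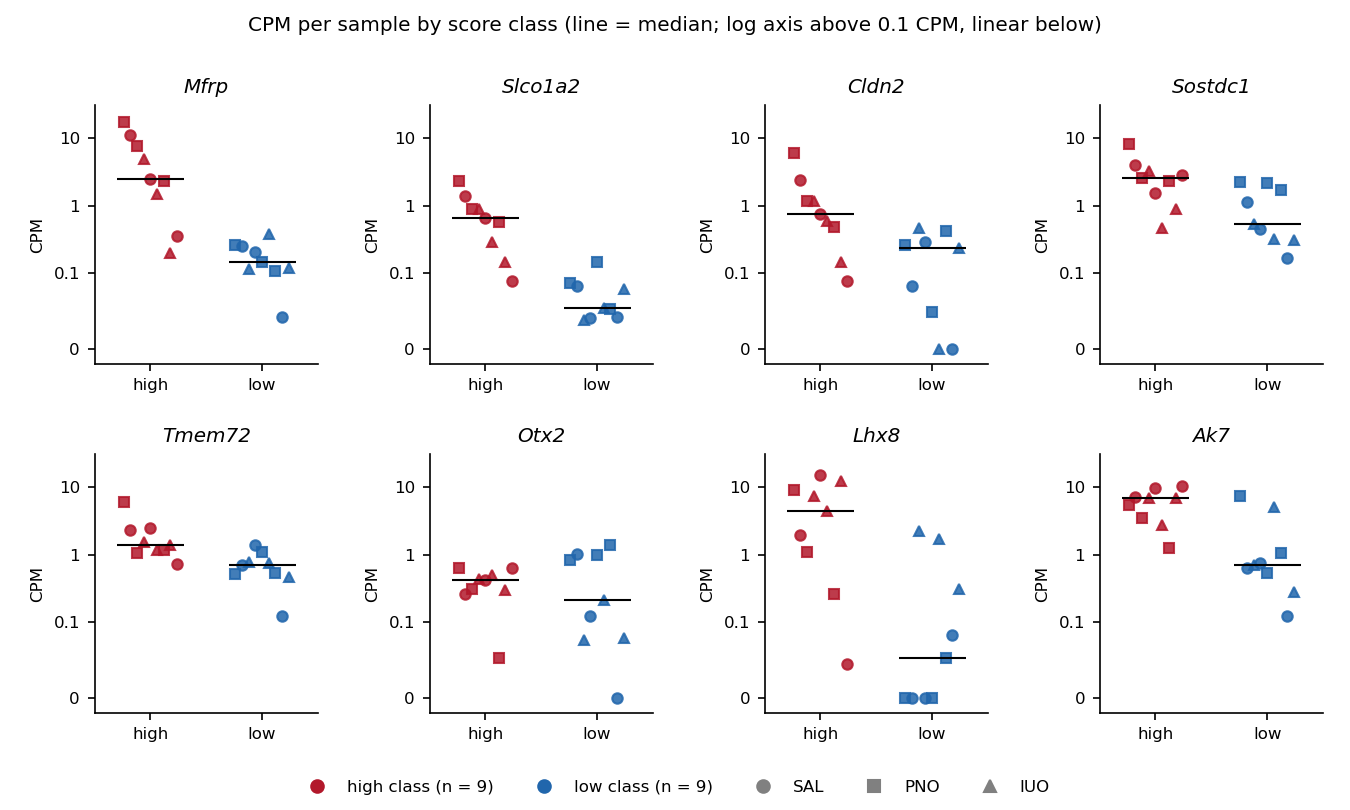
CPM (vertical axis, logarithmic above 0.1 and linear below) of Mfrp, Slco1a2, Cldn2, Sostdc1, Tmem72, Otx2, Lhx8 and Ak7 in the 9 high (red) and 9 low (blue) samples, each class ordered by score from left to right, with the class median as a line. Mfrp and Slco1a2 have 7 and 8 high samples above every low sample, whereas the classes overlap for Otx2.

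The other genes of choroid plexus epithelium were read from 4 lists of transporters, junction and keratin genes, transcription factors, and secreted proteins and receptors. Of their 47 symbols, 43 passed the filter on low counts. A gene with few counts can pass through the high class alone, and the counts below describe the members that passed. They were listed as genes of the same epithelium as the score genes, although several have other sources in brain, and they are no independent support for the score.

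Among secreted proteins and receptors, 11 of 17 had positive differences, with a median log2 difference of 0.34 against 0.00 over all genes tested, and 6 of them passed an unadjusted threshold of 0.05 (7.00% of all genes did so in this direction). Besides Mfrp these were Sostdc1, Tmem72, F5, Calml4 and Ace. The classes overlapped for Ace, at 6.75 to 20.4 CPM against 7.02 to 21.1 CPM, and the low sample IUO 1 held the most. With the replicate block the list median was 0.22, and 4 members passed the threshold. Sostdc1, an inhibitor of bone morphogenetic protein and Wnt signals, was at 0.46 to 8.05 CPM with a median of 2.51 in the high class and at 0.17 to 2.22 CPM with a median of 0.54 in the low class. Its log2 difference was 1.71 (SE 0.41, adjusted p = 0.288), and 6 high samples were above every low one. Tmem72, a transmembrane protein, was at 0.72 to 6.02 CPM against 0.13 to 1.36 CPM, a log2 difference of 1.44 (SE 0.41, adjusted p = 0.295). Coagulation factor V (F5) was at 0.32 to 6.58 CPM against 0.21 to 0.79 CPM, with a difference of 1.33 (SE 0.56, adjusted p = 0.353), which was 0.67 without PNO 1. The members with the highest TPM did not separate. Igfbp2 and Igf2, which the meninges also make, had log2 differences of -0.20 (SE 0.14) and -0.34 (SE 0.23), and Enpp2, which makes lysophosphatidic acid and is also a gene of oligodendrocytes, had 0.32 (SE 0.18).

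Among junction and keratin genes, 7 of 8 had positive differences (median 0.44). The unadjusted threshold was passed by 3 positive and 1 negative, beside 7.00% and 5.82% of all genes. The direction turned in PNO, where the median was -0.29 with 3 of 8 positive, against 0.89 in SAL and 0.71 in IUO, although no gene of the choroid lists passed the interaction test. Cldn2, the claudin of leaky epithelia, was at 5.90 CPM in PNO 1 and 2.39 in SAL 3, at 0.09 to 1.18 CPM in the other high samples, and at 0 to 0.46 CPM in the low class. The log2 difference was 2.60 (SE 0.72, adjusted p = 0.295). Cldn1 and Krt8 had differences of 0.55 (SE 0.21) and 0.78 (SE 0.31). Krt18, the partner of Krt8, had 0.81 (SE 0.47), and Spint2, a protease inhibitor, had 0.27 (SE 0.20). Cdh1, the epithelial cadherin, went the other way and was at 1.20 to 2.59 CPM in the high class and 0.92 to 5.33 CPM in the low class (log2 difference -0.88, SE 0.31, adjusted p = 0.310).

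Among transporters and channels, 11 of 14 had positive differences (median 0.32), and 2 positive and 1 negative passed the unadjusted threshold, beside 7.00% and 5.82% of all genes. The median was 0.16 in SAL and 0.45 in PNO but -0.04 in IUO, with 6 of 14 positive there, and 0.17 over all groups without PNO 1 or with the striatal covariate. Kcne2, a potassium channel subunit, was at 4.43 to 9.30 CPM against 2.51 to 5.95 CPM, a log2 difference of 0.48 (SE 0.16, adjusted p = 0.310). The carbonic anhydrase Car12 had a difference of 0.50 (SE 0.22). The water channel Aqp1 was at 1.23 to 8.23 CPM against 1.91 to 7.65 CPM (0.52, SE 0.35), the potassium channel Kcnj13 at 0.44 to 3.42 CPM against 0.29 to 2.05 CPM (0.33, SE 0.42), and the bicarbonate transporter Slc4a5 at 0.74 to 6.99 CPM against 0.75 to 2.43 CPM (0.63, SE 0.36, or 0.28 without PNO 1). The classes overlapped for all 3. The most abundant members were Slc29a4, a monoamine transporter, with -0.31 (SE 0.10, adjusted p = 0.309), Slc12a2, a chloride transporter, with 0.08 (SE 0.10), and Slc13a4, a sulfate transporter, with -0.46 (SE 0.41).

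Of the 4 transcription factors, 3 had positive differences (median 0.29). Only Msx1 passed the unadjusted threshold (log2 difference 0.50, SE 0.22, adjusted p = 0.366), beside 7.00% of all genes. Lmx1a had the largest difference, 0.79, at 0.21 to 2.21 CPM against 0.08 to 1.91 CPM. In PNO the median was -0.17 with 1 of 4 positive, against 0.72 in SAL and 0.68 in IUO. Otx2, the factor that sets choroid epithelial identity, was at 0.05 to 0.64 CPM in the high class and 0 to 1.38 CPM in the low class (log2 difference -0.05, SE 0.63, adjusted p = 0.974). These levels are 1 to 17 and 0 to 26 counts. The 4 samples with the most Otx2, PNO 5, SAL 2, PNO 4 and PNO 6, were in the low class. Msx2 had a difference of 0.09 (SE 0.25).

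Genes of motile cilia and ependyma had positive differences throughout. This held for all 22 that passed the filter, of 26 listed, with a median log2 difference of 0.99. Members with few counts, such as Tmem212 with 0 to 17 counts in most low samples, passed the filter mainly through the high class. For such members the filter favored this direction. The unadjusted threshold was passed by 14 of the 22, beside 7.00% of all genes. Neither edgeR nor DESeq2 called any of them. Rsph4a, a radial spoke protein, was at 1.58 to 4.03 CPM with a median of 3.50 in the high class and at 0.38 to 3.74 CPM with a median of 0.79 in the low class (log2 difference 1.38, SE 0.40, adjusted p = 0.295). Cfap126 was at 1.69 to 6.40 CPM against 1.37 to 6.13 CPM (1.09, SE 0.31, adjusted p = 0.295), and Tekt1, whose promoter is shown above, was at 2.99 to 6.47 CPM against 0.88 to 5.73 CPM (1.01, SE 0.29, adjusted p = 0.295). The high class held most of the upper values, but 1 low sample reached them each time.

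That sample was PNO 6, whose mean log2 CPM over the list was 2.65, above all 9 high samples (1.00 to 2.63). IUO 1, at 1.79, was the next of the low class, and the other 7 low samples lay between 0.19 and 1.11. For Ak7, the adenylate kinase of cilia, PNO 6 was at 7.38 CPM and IUO 1 at 5.04 CPM, the other low samples at 0.13 to 1.07 CPM, and the high samples at 1.27 to 10.3 CPM. Tmem212, a gene of ependymal cells, was at 0.53 to 5.6 CPM against 0 to 4.78 CPM (log2 difference 1.95, SE 0.77), and the cytoplasmic dynein light chain Dynlrb2 was at 0.84 to 5.51 CPM against 0.20 to 5.04 CPM (1.66, SE 0.56). SAL 4, last of the high class by score, had the second highest list mean of all, 2.63. Without PNO 6, edgeR called 7 genes in all, among them Rsph4a (log2 difference 1.89), Cfap126 (1.38) and Cfap44 (2.37). Rarres2, Zmynd10 and Drc1, the members with the highest TPM, had differences of 0.32 (SE 0.18), 0.42 (SE 0.19) and 0.18 (SE 0.13).

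The cilia genes did not differ evenly in the 3 groups. The median difference in log2 CPM between the top 3 and the bottom 3 samples was 1.89 in SAL, with 21 of 22 genes above 0, 1.10 in IUO, with 21 of 22, and 0.26 in PNO, with 15 of 22. In a fit of the PNO samples alone, where 16 of these genes passed the filter, the median was -0.03 with 7 above 0. No gene of the list passed the test of a difference between groups.

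Genes of striatal medium spiny neurons, which are not cortical cells, also had positive differences in all 12 cases. Their median was 1.02, and 10 passed the unadjusted threshold, beside 7.00% of all genes. With the replicate block the median was 0.83, and 7 passed the threshold. None of the 12 was called by edgeR, and DESeq2 called 1, Adora2a (log2 difference 2.28, adjusted p = 0.0449). Adora2a, the adenosine receptor of the indirect pathway, was at 5.19 to 150 CPM with a median of 64.4 in the high class and at 4.85 to 111 CPM with a median of 7.67 in the low class (log2 difference 2.23, SE 0.65, adjusted p = 0.295). Ppp1r1b, which encodes DARPP-32, was at 31.9 to 816 CPM against 28.9 to 590 CPM (1.97, SE 0.61, adjusted p = 0.295), Rgs9 at 11.3 to 130 CPM against 5.73 to 107 CPM (1.88, SE 0.56), and the enkephalin precursor Penk at 54.8 to 314 CPM against 18.5 to 210 CPM (1.45, SE 0.43). The dopamine receptors Drd1 and Drd2 had differences of 1.21 (SE 0.37) and 1.23 (SE 0.39), and the tachykinin precursor Tac1 had 0.55 (SE 0.25).

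Single samples departed from this order too. The low sample IUO 1 was at 590 CPM of Ppp1r1b, and the high sample SAL 4 was at 31.9 CPM. IUO 2, near the bottom of the high class by score, had the most Ppp1r1b of all 18, 816 CPM. The summed level of the 12 genes ran from 325 to 2241 CPM in the high class and from 296 to 1818 CPM in the low class. The within-group median was 1.25 in SAL, 1.14 in PNO and 0.32 in IUO. With the striatal mean as a covariate, Mfrp and Slco1a2 had log2 differences of 4.04 and 3.02 and neither was called. The cilia list had a median of 0.96, with 9 genes past the unadjusted threshold in place of 14. With the oligodendrocyte covariate the cilia median was 0.66 with 5 genes, and with the meningeal covariate 0.90 with 6. The part of the striatal genes in the other differences was not tested beyond this.

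Genes of the septum and of cholinergic neurons formed another group on the high side. Of 7 listed, 6 had positive differences (median 0.92) and 5 passed the unadjusted threshold, beside 7.00% of all genes. The within-group median was 0.54 in SAL, 0.37 in PNO and 1.15 in IUO. With the replicate block the median was 0.74, and 3 passed the threshold. Lhx8, a factor of basal forebrain cholinergic neurons, was at 14.7 CPM in SAL 1, 12.2 in IUO 2, 8.87 in PNO 1, 7.18 in IUO 6 and 4.38 in IUO 4, at 1.91 in SAL 3 and 1.10 in PNO 3, and at 0.26 in PNO 2 and 0.05 in SAL 4. Of the low samples, IUO 3 was at 2.20 and IUO 1 at 1.72 CPM, and the other 7 were at 0 to 0.32 CPM. These 7 held 0 to 8 counts, so Lhx8 passed the filter on low counts mainly through the high class. Its log2 difference was 4.39 (SE 0.98, adjusted p = 0.245), in the direction that the filter favored. Chat, which makes acetylcholine, was at 0.53 to 8.01 CPM against 0.33 to 2.10 CPM (1.53, SE 0.44, adjusted p = 0.295), and its vesicular transporter Slc18a3 had 0.96 (SE 0.35). The zinc finger factors Zic4, Zic1 and Zic2 had 0.92 (SE 0.32), 0.73 (SE 0.32) and 0.53 (SE 0.29), and Trpc4 had -0.11 (SE 0.14).

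Genes of the same kind outside the lists, chosen after their values were seen, were Nkx2-1, Ngfr and Isl1. Nkx2-1, a factor of the ventral forebrain, was at 0.23 to 6.00 CPM with a median of 3.13 in the high class and at 0.11 to 1.82 CPM with a median of 0.29 in the low class (log2 difference 2.63, SE 0.55, adjusted p = 0.204). Like Lhx8, it held few counts in most low samples and passed the filter mainly through the high class. The neurotrophin receptor Ngfr had a difference of 1.41 (SE 0.38), and the homeodomain factor Isl1 had 2.84 (SE 0.80). DESeq2 called Lhx8 (5.88), Nkx2-1 (2.71), Ngfr (1.41) and Isl1 (3.18), and from the choroid lists also Sostdc1 (1.74). With the score as a number, Lhx8 (4.55), Nkx2-1 (2.46), Ngfr (1.36) and Gbx2 (2.49) were called, as were Cldn2 (2.53), Tmem72 (1.46) and Sostdc1 (1.51) of the choroid lists. These values are log2 differences over the mean gap between the classes.

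**Figure D3:**
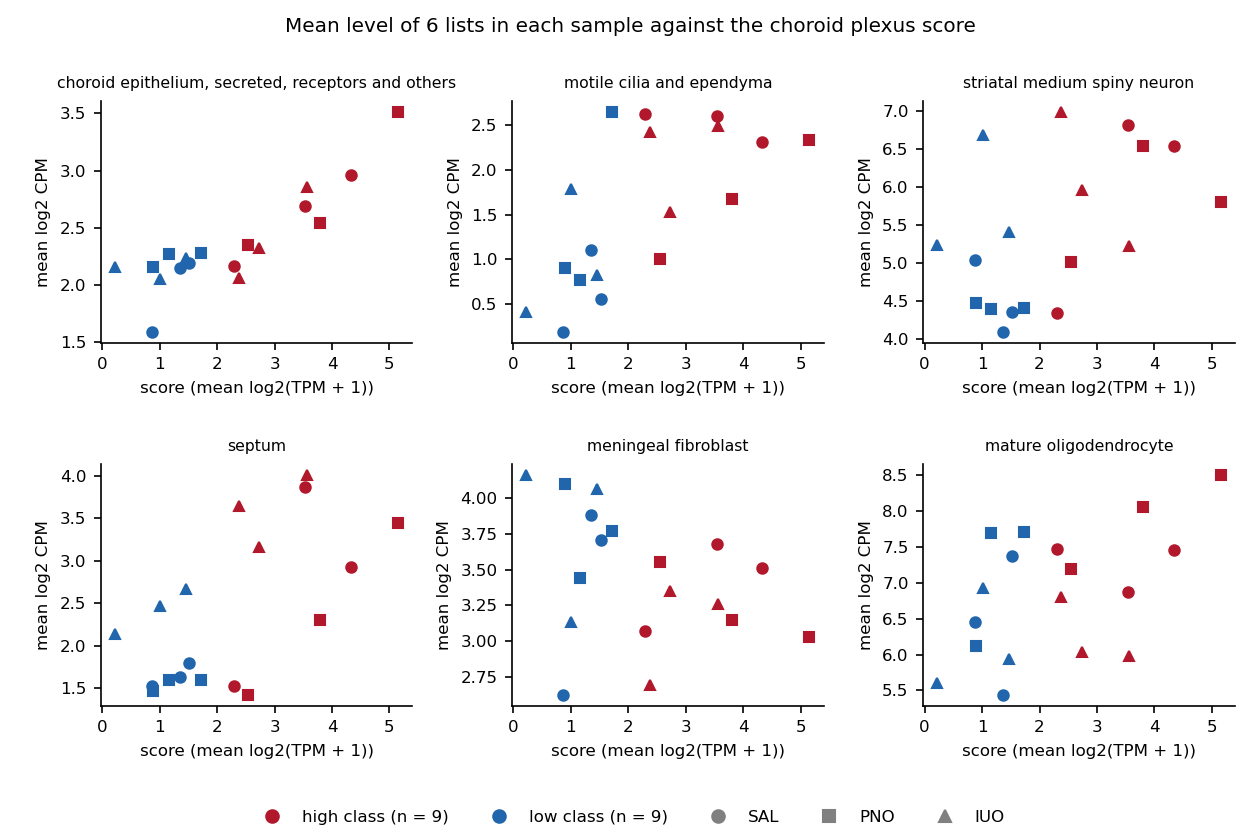
Mean log2 CPM (vertical axis) of 6 lists in each of the 18 samples against the choroid plexus score (horizontal axis), with red for the high and blue for the low class and the shape for the group. PNO 6 and IUO 1 of the low class reach high values for cilia (2.65) and striatal genes (6.69) respectively, and SAL 4 of the high class is among the lowest for striatal genes (4.33).

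Genes of meningeal fibroblasts went the other way. Of 21 that passed the filter, 19 had negative differences (median -0.40 on the log2 scale). The unadjusted threshold was passed by 10, beside 5.82% of all genes, and neither edgeR nor DESeq2 called any. In fits with the replicate block, the striatal covariate and the oligodendrocyte covariate, 1, 1 and 2 genes passed it, with medians of -0.38, -0.36 and -0.28. Ogn (osteoglycin) was at 0.63 to 3.29 CPM in the high class and at 0.08 to 11.5 CPM with a median of 5.4 in the low class (log2 difference -1.58, SE 0.54, adjusted p = 0.310). Slc22a6, an organic anion transporter, was at 5.51 to 12.9 CPM against 7.08 to 27.1 CPM (-0.72, SE 0.26), and the forkhead factor Foxc2 was at 0.54 to 1.36 CPM against 0.75 to 3.14 CPM (-0.76, SE 0.25). The collagens Col1a1 and Col3a1 had differences of -0.59 (SE 0.24) and -0.51 (SE 0.23), and prostaglandin D2 synthase, Ptgds, had -0.67 (SE 0.29). Mgp had 0.02 (SE 0.18). The low sample SAL 5 held little of these genes and had the lowest mean of all 18, 2.63. The median difference was -0.75 in IUO, -0.50 in PNO and -0.03 in SAL. The summed level lay between 332 and 835 CPM in the high class and between 411 and 1212 CPM in the low class. The part of these genes in the other differences was not tested beyond the covariate fit.

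The genes with the smallest p-values on the low side were Slco2a1, Gjd2, Fbn1, Pak6 and Ttll12, and edgeR called none of them between the classes. Slco2a1 was called by DESeq2 (-0.74) and with the score as a number (-0.64). Slco2a1 was at 2.59 to 4.11 CPM in the high class and at 3.91 to 7.24 CPM in the low class (log2 difference -0.73, SE 0.13, adjusted p = 0.0852). Gjd2, the gap junction protein of neurons, was at 11.7 to 20.1 CPM against 14.6 to 31.4 CPM (-0.51, SE 0.10). Fbn1, which encodes fibrillin, had -0.40 (SE 0.09), the kinase Pak6 had -0.39 (SE 0.08), and Ttll12 had -0.28 (SE 0.06), each with an adjusted p of 0.204. With DESeq2 the adjusted p was 0.0029 for Gjd2, 0.0070 for Fbn1, 0.0078 for Pak6 and 0.0072 for Ttll12, and their changes were under the 1.5-fold limit of a call.

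Myelin genes differed by a smaller amount. All 12 genes of mature oligodendrocytes had positive differences (median 0.42). Those past the unadjusted threshold were Cnp (log2 difference 0.45, SE 0.20) and Opalin (0.74, SE 0.33), beside 7.00% of all genes. The median was 0.058 with the replicate block, 0.16 with the meningeal and 0.21 with the striatal covariate, and no gene passed the unadjusted threshold in these fits. Mbp, which encodes myelin basic protein, was at 1320.5 to 6372 CPM against 687 to 5880 CPM (0.38, SE 0.33). The summed level ran from 3024 to 15514 CPM against 1809 to 10874 CPM, and PNO 1 had the highest list mean. The within-group median was 0.85 in SAL, 0.64 in PNO and 0.09 in IUO. Of 8 precursor genes, 7 had positive differences (median 0.29), with differences of 0.31 (SE 0.11) for Sox10, 0.32 (SE 0.14) for Olig1 and 0.29 (SE 0.21) for Bcas1.

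Genes of cortical excitatory neurons had a median of -0.15 over 18 rows, of which 13 were negative. The unadjusted threshold was passed by 3, beside 5.82% of all genes in this direction. These were the upper-layer gene Cux2 (log2 difference -0.55, SE 0.17), the deep-layer gene Tbr1 (-0.50, SE 0.18) and the layer-4 gene Rorb (-0.65, SE 0.26). The most abundant members, Nrgn, Slc17a7 and Camk2a, had 0.02 (SE 0.26), -0.14 (SE 0.15) and -0.31 (SE 0.24). Slc17a7, the vesicular glutamate transporter that defines cortical excitatory neurons, was present in every sample, at 845 to 2049 CPM in the high class and 1145 to 1933 CPM in the low class. Interneuron genes had a median of 0.22, with 0.26 (SE 0.15) for Sst, 0.16 (SE 0.16) for Gad1 and -0.05 (SE 0.28) for Calb2. In the thalamus list 5 of 8 genes had positive differences (median 0.18), but the median was -0.038 without IUO 6 and -0.16 in PNO alone. Gbx2, a factor of thalamic development, had 2.35 (SE 0.71), or 1.68 without IUO 6, which held 4.69 CPM. Prkcd had 0.60 (SE 0.18, adjusted p = 0.295), Tcf7l2 0.40 (SE 0.62, or -0.075 without IUO 6) and Slc17a6 -0.27 (SE 0.49). Calb1, C1ql2 and Prox1 of the dentate gyrus had 0.27 (SE 0.14), 0.51 (SE 0.37) and 0.20 (SE 0.23). Dcx of young neurons was at 77.7 to 200 CPM against 125 to 539 CPM (-0.59, SE 0.23, adjusted p = 0.335, or -0.29 without SAL 6), whereas Cd24 had -0.23 (SE 0.17) and Dlx1 0.07 (SE 0.29).

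Medians for vascular, immune and glial genes were 0.07 for endothelium, 0.18 for mural cells, 0.08 for microglia, 0.06 for astrocytes and -0.36 for border macrophages. The endothelial genes Cldn5, Slc2a1 and Egfl7 had log2 differences of 0.15 (SE 0.12), 0.15 (SE 0.08) and 0.21 (SE 0.11), and the mural genes Tagln, Rgs5 and Vtn had 0.38 (SE 0.14), 0.13 (SE 0.16) and -0.04 (SE 0.14). The microglial genes Aif1 and C1qb had 0.09 (SE 0.12) and 0.15 (SE 0.11), and the macrophage genes Mrc1, Lyve1 and Pf4 had -0.37 (SE 0.18), -0.25 (SE 0.13) and 0.20 (SE 0.23). In astrocytes S100b had 0.28 (SE 0.11), Aldoc 0.22 (SE 0.11) and Slc1a3 0.01 (SE 0.12). Hemoglobin Hbb was at 118 to 2105 CPM against 259 to 819 CPM, and both rows named Hba-a2 had -0.01, with the highest Hbb in IUO 6.

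**Figure D4:**
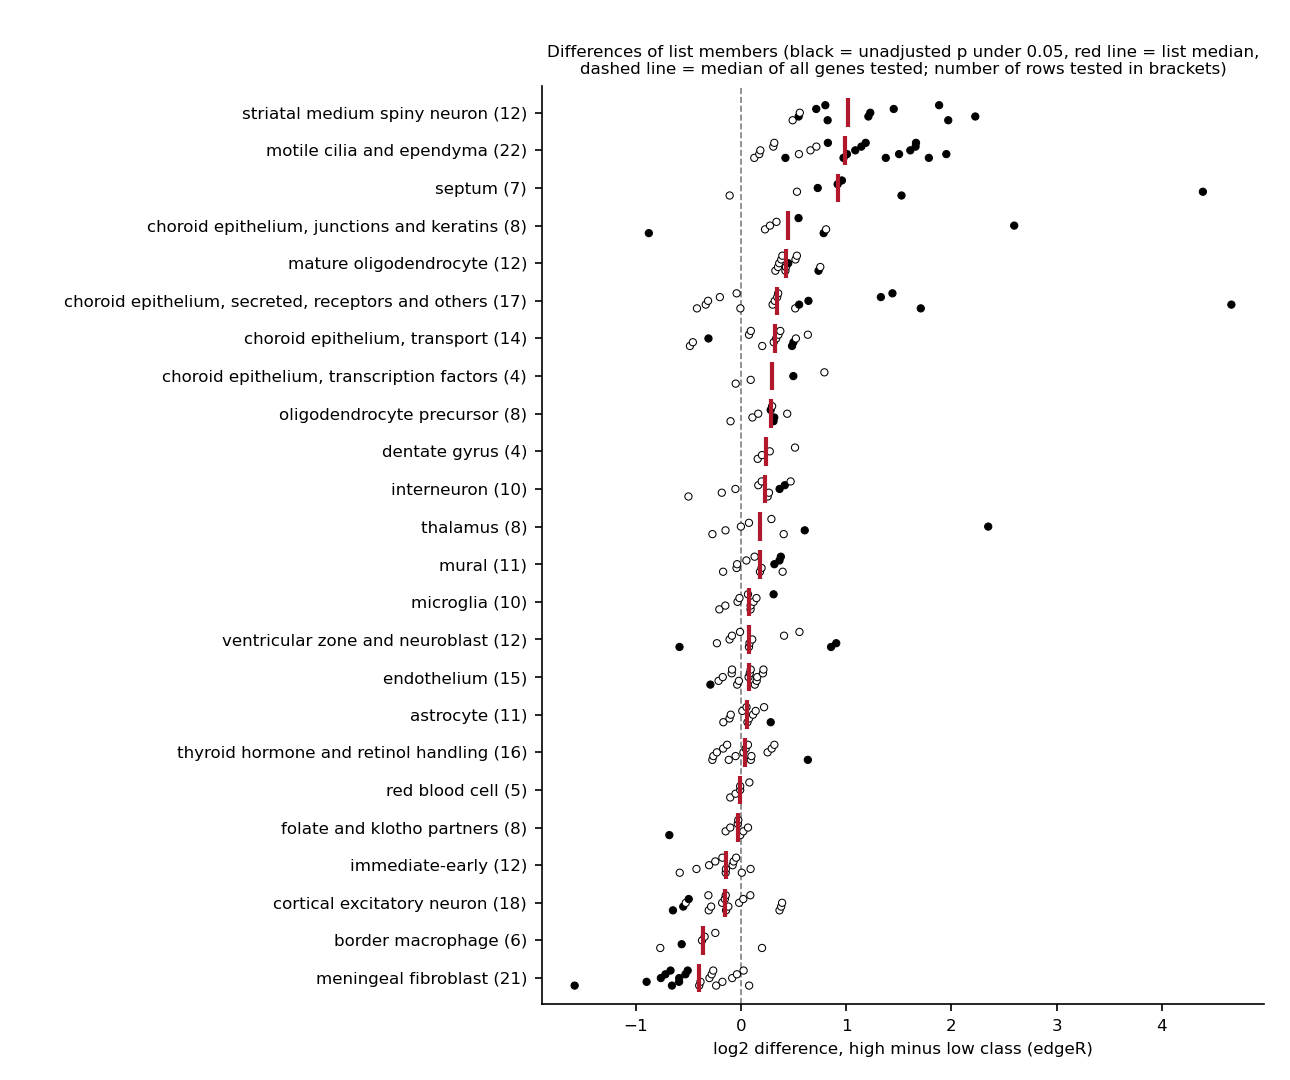
Log2 difference between the high and the low class (horizontal axis) for each gene of 24 lists (rows), black where the unadjusted p-value is under 0.05, with the list median in red and the median of all genes as a dashed line. Striatal, cilia and septum genes lie to the right with medians of 1.02, 0.99 and 0.92, and meningeal genes to the left at -0.40.

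Genes that handle the cargo of the score proteins were read as well. The thyroid hormone and retinol list had a median of 0.03 over 16 genes. The unadjusted threshold was passed by 1 gene, the deiodinase Dio3 (0.63, SE 0.26), beside 7.00% of all genes in this direction. The most abundant members were the receptor Thra with -0.12 (SE 0.06), the thyroid hormone binding protein Crym with 0.10 (SE 0.09) and the transporter Slco1c1 with 0.06 (SE 0.10). Among folate genes and klotho partners the median was -0.03 over 8 genes. Folr2, the folate receptor of macrophages and a relative of Folr1, was at 0.29 to 0.73 CPM against 0.43 to 1.28 CPM (log2 difference -0.68, SE 0.18, adjusted p = 0.288). The folate transporter Slc46a1, the enzyme Mthfd1 and the receptor Fgfr1 had -0.01 (SE 0.06), 0.02 (SE 0.06) and -0.03 (SE 0.13).

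Immediate-early genes had a median of -0.15 over 12 genes with none past the unadjusted threshold, and the groups went opposite ways, although none of the 12 passed the interaction test (adjusted p = 0.988 for each). All 12 were above 0 in PNO (median 0.40), and all 12 were below 0 in SAL (median -0.55) and in IUO (median -0.44). Egr1, Junb and Arc had differences of -0.14 (SE 0.24), -0.07 (SE 0.23) and 0.09 (SE 0.31) over the 3 groups.

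**Figure D5:**
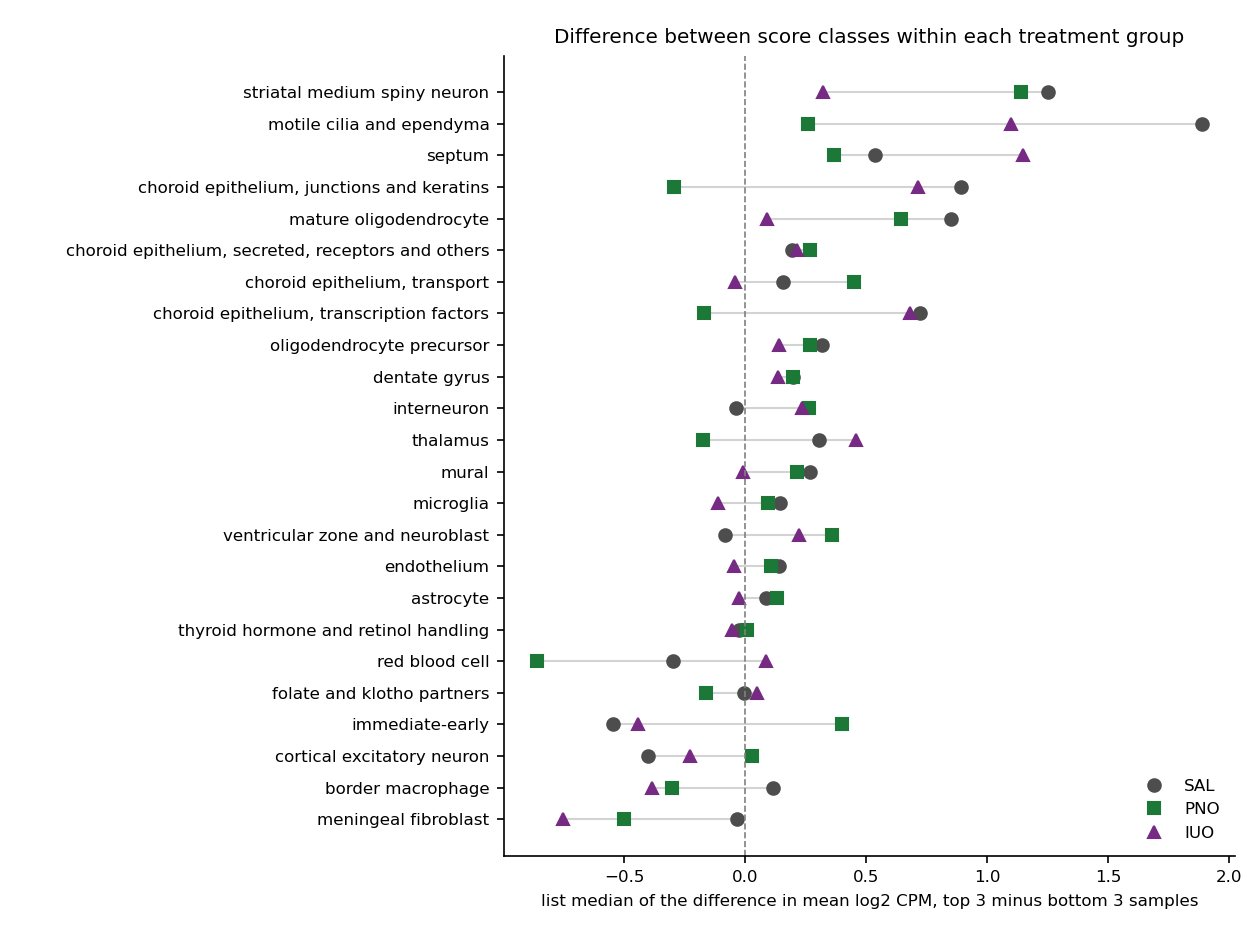
Median over each list (rows) of the difference in mean log2 CPM between the top 3 and the bottom 3 samples (horizontal axis), shown for SAL, PNO and IUO. Cilia genes range from 0.26 in PNO to 1.89 in SAL, and immediate-early genes from -0.55 in SAL to 0.40 in PNO.

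The classes of 9 samples did not overlap in only 1 gene outside the score, Ccdc17, which was higher (0.00637% of genes), and in 0 genes (0%) that were lower. Ccdc17, a coiled-coil protein, was at 3.14 to 4.87 CPM in the high class and at 1.97 to 3.08 CPM in the low class (log2 difference 0.51, SE 0.11, adjusted p = 0.204). The top 3 and the bottom 3 were apart in each of the 3 groups for 7 higher genes (0.0446%) and 5 lower genes (0.0318%), which are named here after their values were seen. The higher ones were Slco1a2 (in SAL only by library scaling, since SAL 4 and SAL 2 both held 2 counts), Gstm7, Ccdc17, Itga2b, Nim1k, Ech1 and Fam63a, and the lower ones Slco2a1, Ttll12, Sybu, Sh2d4a and Lpcat1. Gstm7, a glutathione transferase, was at 74.9 to 139 CPM against 61.2 to 108 CPM (log2 difference 0.42, SE 0.07, adjusted p = 0.0741).

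The difference between the classes was itself unequal among SAL, PNO and IUO for 2 of 15703 genes (0.0127%), Ephx2 and Vom2r44 (interaction test, adjusted p = 0.0292 for each). Ephx2, soluble epoxide hydrolase, was at 1.96, 2.09 and 2.32 CPM in the 3 high PNO samples and at 8.43 to 29.8 CPM in the other 15. Vom2r44, a vomeronasal receptor gene, was at 0.27, 0.39 and 0.49 CPM in the 3 low PNO samples and at 4.29 to 14.7 CPM in the other 15. Each gene thus set 3 PNO samples apart from all the rest, and these are the samples numbered 1 to 3 for Ephx2 and 4 to 6 for Vom2r44. Neither was called with the replicate number as a block.

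With the class held in the model, edgeR called 0 genes for PNO against SAL (0%) and 0 for IUO against SAL (0%). The unadjusted threshold of 0.05 was passed by 737 and 1136 genes, and DESeq2 called 2 and 27. Between IUO and PNO edgeR called 8 genes (0.0509%), 3 higher and 5 lower in IUO, against 7 without the class in the model. DESeq2 called 194 there, and edgeR called 0 with the striatal or the oligodendrocyte covariate. Leaving out 1 sample moved the edgeR number between 0 and 76.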

How the data were processed

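Total RNA of the PFC was made into libraries with the TruSeq V2 kit and sequenced as single reads on 1 flow cell. The authors deposited, for each of 32623 genes per sample, an expected count in which reads that match several genes are shared out, with no normalization. The TPM values deposited by the authors are scaled to gene length and to one total per sample, and here they set the score and the most abundant list members. The FPKM values were not used. The aligner, genome build and annotation are not given in the sources used here. Groups and replicate numbers were taken from the sample titles.

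TPM was summed over rows with one symbol. Expected counts were rounded to whole numbers; the test was that of edgeR 4.0.16 under R 4.3.3 (TMM, filterByExpr by group, glmQLFit and glmQLFTest, two-sided, score class plus group) over 15703 genes with Benjamini-Hochberg adjustment; the interaction of class and group was tested in a second model. A call needed an adjusted p-value under 0.05 and, except for the interaction, 1.5-fold. Log2 CPM used a prior count of 2. DESeq2 1.42.0 was an alternative. Tables and plots were made with Python 3.11.15, pandas 2.3.3 and matplotlib 3.10.9, and the fits were tested on simulated data. Precision is given as the SE of the fit.

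The genes named are the called genes (the 5 with the smallest p where none was called), the 3 members of each list with the highest mean TPM, the score genes, and further genes chosen after their values were seen. The members and lists were chosen with earlier results of these data known. Listed symbols that did not match a row (among them Foxj1, Pecam1 and Col1a2) were not used here, and a few genes that the rule names are not reported here. Promoters came from RefSeq (GRCr8). Alternatives were other scalings and filters, DESeq2, a replicate block, a numeric score, 2 ranks per class, single groups, covariates, and each sample left out.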

Additional observations from a re-analysis of the deposited data

Results flagged for a closer look

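In 14 of 246 checks over named genes, 1 sample stood apart from the other 8 of its class. Chance gives about 1 such value in 20 checks. In the low class SAL 5 was lowest for Krt8 (log2 CPM of -0.86), Tmem72 (-2.21), Ogn (-2.52) and Prkcd (3.29), and SAL 6 was highest for Slc1a3 (9.81), Dcx (9.07) and apart for Sst (6.34). Also in the low class, PNO 6 was apart for Cfap126 (2.64), IUO 1 for C1qb (5.35) and IUO 5 for Slco1c1 (6.21). In the high class PNO 1 was apart for F5 (2.74) and Egfl7 (3.93), PNO 2 for Otx2 (-2.81) and SAL 4 for Slc46a1 (4.30).

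The difference between the score classes was unequal among the groups for Ephx2 and Vom2r44 (interaction test in edgeR, adjusted p = 0.0292). For Ephx2 the difference in log2 CPM, high minus low, was -3.05 in PNO, -0.15 in SAL and 0.47 in IUO. For Vom2r44 it was 4.36 in PNO, 0.03 in SAL and 0.18 in IUO. In PNO the score class goes with the order of the replicate numbers and cannot be told apart from it.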

How the results depend on the processing

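Of the 2 genes called between the score classes, Mfrp and Slco1a2, both were among the 27 that DESeq2 called and the 19 called with the score as a number. A mean count of 10 or more left 1 call, Mfrp, and removed Slco1a2 from the test. The count was 0 in SAL, PNO or IUO alone (smallest adjusted p-values 0.0936, 0.142 and 0.738), fits whose filter left out both Mfrp and Slco1a2, 0 with the striatal, oligodendrocyte or meningeal covariate, and 0 to 7 when 1 sample was left out. The interaction had 2 calls, 14 with DESeq2, 0 with the striatal covariate and 0 to 2 with 1 sample left out. Between IUO and PNO the 8 calls became 194 with DESeq2, 0 with the striatal and 0 with the oligodendrocyte covariate, and 0 to 76 with 1 sample left out. The 0 calls between IUO and SAL became 27 with DESeq2 and 0 to 1 with 1 sample left out, and those between PNO and SAL 2 with DESeq2. The causes were not tested.

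The replicate block gave 0 calls between the classes (smallest adjusted p-value 0.0548, 577 genes at an unadjusted p-value under 0.05 against 2013) and 0 for the interaction. Same-numbered samples of different groups had correlated deviations of -0.30 to 0.49 over 18 pairs, 8 of them above 0.1. As not every pair was above 0.1 and no label ties the numbers to a litter or batch, the number was not taken to pair samples. Of all samples, 7 of 18 correlated best with 1 of their 2 same-numbered partners out of 12. This is more often than equal odds over the 12 would give, so it remains unknown whether the numbers pair samples.

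Of 66 named genes with an unadjusted p-value under 0.05, 6 changed sign, each in 1 setting: with PNO alone Zmynd10 (-0.052) and Ccdc153 (-0.14), with IUO alone Tagln (-0.065), with the meningeal covariate Col3a1 (0.0029), and with the striatal covariate Tac1 (-0.0073) and Drd1 (-0.011). Col3a1, Tac1 and Drd1 belong to the lists averaged as these covariates. Values near 0 were thus built into those fits, as they were for Mbp with the oligodendrocyte covariate. Of the other 57 named genes, 47 changed sign, 25 of them in several settings, so their directions are not stable. Among these were Krt18 (-0.30 in PNO alone), Slc13a4 (0.32 in PNO alone) and Kcnj13 (-0.64 in IUO alone). Counts of 1 to 7 in the low class limit the precision of Mfrp and Slco1a2.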
